A study of Mus musculus with 8 samples.

Results

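The IL-20 family genes described here were 3 ligands, Il19, Il20 and Il24, and 4 receptor chains, Il20ra, Il20rb, Il22ra1 and Il10rb. They were found by gene name on the array, where 12 probes carried the name of one of these 7 genes, of 39429 probes and 29608 gene names in all. The family was chosen by its measured PACAP over vehicle ratios, above all those of Il19 in the KO mice, so every such ratio is given as a description and without a test. The samples were palm skin of the forepaw from male C57BL/6 mice (WT) and Adcyap1r1 -/- mice (PAC1R KO), aged 9 to 10 weeks. Under anaesthesia the footpad received an intradermal injection of 5 µL vehicle, saline with 0.1% bovine serum albumin, either alone or with 1e-07 mol/L PACAP, a neuropeptide whose selective receptor is PAC1R. Skin was taken 30 or 60 min later, which gave 4 comparisons of PACAP with vehicle, named WT 30 min, WT 60 min, KO 30 min and KO 60 min. The methods name 6 mice per genotype, and whether RNA of several mice was pooled is not given in the sources used here. The vehicle samples of the KO comparisons came from mice of the same genotype. The study used both genotypes to follow the location of the water channel AQP5 and gene expression in sweat gland tissue after PACAP. Its stated aim was to identify how PACAP signals inside the cell.

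IL-19, IL-20 and IL-24 are cytokines related to IL-10 that act mainly on epithelial cells, and keratinocytes are among both their sources and their targets. The chains Il20ra and Il20rb together form a receptor for all of the ligands, whereas Il22ra1 with Il20rb binds IL-20 and IL-24. Il22ra1 with Il10rb forms the receptor of IL-22. In skin these receptors signal through JAK kinases and STAT3 towards keratinocyte growth, antimicrobial proteins and the keratins of injured epidermis, and the family is known for its high expression in psoriasis and in wounds.

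Each comparison was 1 pair of RNA samples hybridised on 2 Agilent arrays with Cy3 and Cy5 exchanged, and the pair counted as 1 replicate. The 2 arrays of a pair therefore measured dye and array error only, and no value from them speaks of the spread between mice. All WT arrays were on one slide and all KO arrays on another, so that genotype and slide cannot be told apart. Across the arrays, 78.6% to 94.5% of Cy5 spots and 54.0% to 65.3% of Cy3 spots passed the software's flag for signal well above background. Over the 12 probes, 4 were well above background in all 16 channels, 6 in some and 2 in none. Feature Extraction, the scanner software, had set 20 of the 96 array ratios of these probes to a fold of 1. The probe for the targeted gene Adcyap1r1 had log2 levels of 8.26 to 8.76 in the WT samples and 7.91 to 8.56 in the KO samples, and where it lies relative to the deleted part was not analysed here.

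Il19, a ligand of the receptor made of Il20ra and Il20rb, was the member with the highest PACAP over vehicle ratio, and it was high in the KO mice. Both of its probes lie on mouse chromosome 1, minus strand, in mm9, at chr1:132829446-132829505 (A_55_P2001489, the brighter) and chr1:132829235-132829294 (A_55_P2128144, the dimmer). Their starts are 211 bases apart. In KO 60 min the dimmer probe gave PACAP over vehicle folds of 20.5 with PACAP in Cy5 and 12.3 with PACAP in Cy3, a mean of 15.9. The brighter probe gave 2.01 and 2.16 on the same arrays, a mean of 2.08. The probes thus pointed the same way with very different sizes.

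The signals behind these folds show where each of them rests. With PACAP in Cy5 the dimmer probe read 251.2 after PACAP and 12.3 after vehicle in KO 60 min, in the arbitrary units of the processed signal. With the dyes exchanged it read 237.5 and 19.3. The PACAP sample was well above background on both arrays, and the vehicle sample on 1 of 2, the array where it was in Cy5. The lower fold, 12.3, was thus the one with both channels measured. In KO 30 min this probe read 19.0 after PACAP and 4.78 after vehicle with PACAP in Cy5, and 15.9 and 6.34 with PACAP in Cy3. Its folds were 3.98 and 2.52, a mean of 3.17, and each sample passed the background flag on 1 array, where it was in Cy5. In the WT mice all 8 of its signals lay between 2.20 and 5.71, and the software had set all 4 ratios to a fold of 1. WT signals did not overlap with the PACAP signals of the KO mice, but signals of different arrays share no scale.

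The brighter Il19 probe was well above background in all 16 channels and gives a value in every sample. On the log2 scale of levels set across arrays it stood at 6.62 after vehicle and 6.60 after PACAP in WT 30 min, and at 6.78 and 6.74 in WT 60 min. It stood at 7.12 after vehicle and 7.38 after PACAP in KO 30 min, and at 7.26 and 7.99 in KO 60 min. All 4 KO samples were above all 4 WT samples. The share of all probes that separate the genotypes in this way was not counted, and genotype and slide coincide. With this probe the PACAP sample of KO 60 min was the highest of the 8. On single arrays its PACAP over vehicle fold was 0.506 and 1.80 in WT 30 min, 0.527 and 1.26 in WT 60 min, and 1.13 and 1.57 in KO 30 min. The direction in the WT mice followed the dye and not the treatment, since the Cy3 sample was the brighter on all 4 WT arrays.

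**Figure D1:**
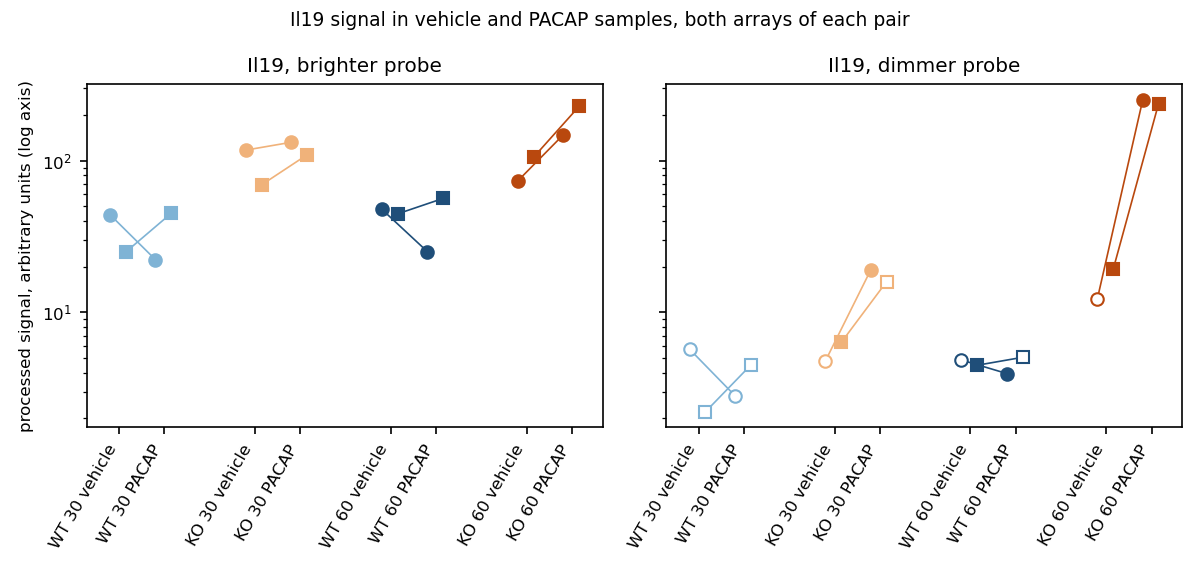
Processed Il19 signal (y axis, arbitrary units, log axis) after vehicle and after PACAP in the 4 comparisons (x axis), with the brighter probe on the left and the dimmer on the right. Circles are the array with PACAP in Cy5 and squares the array with PACAP in Cy3, lines join the 2 channels of an array, and filled symbols were well above background; the dimmer probe rises from 12.3 and 19.3 to 251.2 and 237.5 in KO 60 min and stays under 6 in the WT mice.

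A probe was counted as changed at a mean fold of 2.0 or more, or 0.5 or less, if both arrays pointed one way and each had a p under 0.01 in Feature Extraction. That p compares the channels of 1 array and not mice. In KO 60 min 2 of the 12 member probes counted as higher, both of Il19, and 0 as lower, where 0.142% of all probes counted as higher and 0.15% as lower. In KO 30 min 0 counted either way, with 0.601% higher and 0.107% lower among all probes. In WT 30 min 0 counted either way, with 0.254% and 0.0964% among all probes, and in WT 60 min 0 again, with 0.583% and 0.109%. As the members were chosen on these ratios, nothing is read from the counts. The members nearest to the limits were the brighter Il19 probe in KO 60 min, just inside at a mean of 2.08, and the dimmer one in KO 30 min, outside because its p was 0.00576 on one array and 0.0702 on the other. When background was corrected by normexp with an offset of 50, which draws dim signals together, the fold of the dimmer Il19 probe in KO 60 min was 4.34 and that of the brighter 1.65, and the brighter was no longer counted. Under that setting 29 probes of the whole array counted as higher in KO 60 min, against 56 before. With the array of PACAP in Cy5 alone, 2 member probes counted as higher in KO 30 min, the dimmer Il19 probe and the brighter Il20 probe, and over the whole array 435 did, against 237 with both arrays.

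**Figure D2:**
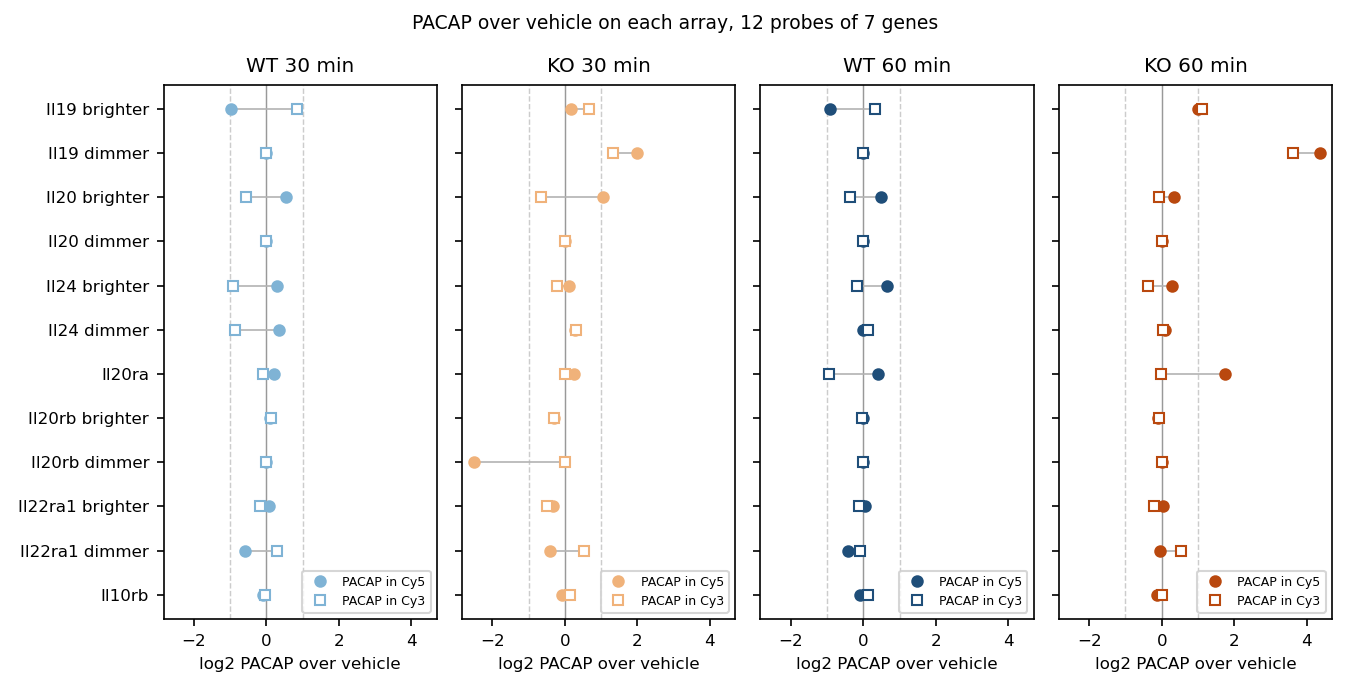
The log2 ratio of PACAP over vehicle (x axis) for the 12 probes (rows) in the 4 comparisons (panels). Filled circles are arrays with PACAP in Cy5 and open squares arrays with PACAP in Cy3, grey lines join the 2 arrays of a pair, and dashed lines mark a fold of 2.0 and 0.5; both Il19 probes lie at or right of the upper line on both arrays in KO 60 min alone.

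Il20, a close relative of Il19 that binds both receptors of the family, showed no such ratio. Its brighter probe (A_66_P132710, mm9 chr1:132803739-132803798, minus strand) gave PACAP over vehicle folds of 1.28 and 0.945 in KO 60 min and 2.05 and 0.634 in KO 30 min. In the WT mice it gave 1.47 and 0.679 at 30 min and 1.41 and 0.773 at 60 min. On all 8 arrays the Cy5 sample was the brighter, so that the direction followed the dye, and the mean folds lay between 0.997 and 1.14. This probe was well above background in Cy5 on all 8 arrays but in Cy3 on 4, and in KO 30 min in Cy3 on neither. Its log2 level ran from 6.39 to 7.06 over the 8 samples, with both samples of KO 60 min, 6.99 after vehicle and 7.06 after PACAP, above the other 6. The other Il20 probe (A_51_P331044), whose ends lie 1066 bases apart in mm9 and which therefore spans an intron, was not well above background in any channel and gives no fold.

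Il24, the ligand made by many of the same cells and also induced in wounds, had mean ratios near 1 whose arrays often pointed opposite ways. Its brighter probe (A_55_P2127215, mm9 chr1:132782338-132782397, minus strand) had mean folds of 0.801 in WT 30 min, 0.958 in KO 30 min, 1.17 in WT 60 min and 0.974 in KO 60 min. The Cy5 sample was the brighter on 8 of 8 arrays, and its single-array folds ran from 0.529 to 1.56. Its other probe (A_55_P1981224, mm9 chr1:132783875-132783934) had mean folds of 0.831, 1.23, 1.05 and 1.05 in the same order. The probes disagreed in direction in KO 30 min and in KO 60 min, and each was well above background in 13 of 16 channels. In KO 60 min, where both probes of Il19 counted as higher, neither Il20 nor Il24 had a probe with a mean fold beyond 0.974 to 1.10.

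The ligand genes are neighbours in one cluster, and the sequences before their starts are shown so that Il19, with its high PACAP over vehicle ratio in the KO mice, can be set beside Il20, whose ratio was near 1. They are the 250 bases before the RefSeq start in GRCm38.p6, a later build than the mm9 of the probes, at chr1:130940116-130940365 for Il19 and chr1:130911297-130911546 for Il20, both on the minus strand. Capitals mark a match to one of the motifs searched.
Il19: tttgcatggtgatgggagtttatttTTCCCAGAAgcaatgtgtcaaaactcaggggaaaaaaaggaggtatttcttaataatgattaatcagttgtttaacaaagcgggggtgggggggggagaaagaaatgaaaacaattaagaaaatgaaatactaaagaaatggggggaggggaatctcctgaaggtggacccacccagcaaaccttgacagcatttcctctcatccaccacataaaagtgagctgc
Il20: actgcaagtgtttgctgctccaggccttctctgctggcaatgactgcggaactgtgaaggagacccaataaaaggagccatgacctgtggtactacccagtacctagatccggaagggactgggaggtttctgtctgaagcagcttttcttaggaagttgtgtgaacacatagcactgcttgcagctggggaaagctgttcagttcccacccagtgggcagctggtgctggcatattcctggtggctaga
RefSeq windows of 300 bases, these 250 and the 50 after the start, were held for 5 of the 7 members, Il19, Il20, Il20ra, Il20rb and Il22ra1. The motifs were the cAMP response element TGACGTCA and its part TGACG, the AP-1 motif TGANTCA, the STAT motif TTCNNNGAA and an NF-kappa-B motif GGGNNTTCC, on both strands. Of these the first 2 overlap, and the shares of all 32851 windows with a match were 1.79%, 20.8%, 7.81%, 8.30% and 5.82%. The Il19 window held 1 STAT match, which begins 225 bases before the start, and the Il20 window held none of the motifs. AP-1 matches stood in the windows of Il20ra, 164 bases before the start, and of Il22ra1, 222 bases before it, and the Il20rb window held none. A match is a matter of letters and was not measured as a binding site.

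Around Il19 the array had 20 probes within 250 kb on either side in mm9, for 15 gene names, 12 of them outside the family. Of the 20 probes 6 are those of the ligands. Of the neighbouring probes 1 counted as changed in 1 comparison, KO 30 min, where 0.601% of all probes counted as higher and 0.107% as lower. It was Fcmr, which encodes a receptor for IgM, 52.0 kb from the dimmer Il19 probe and on the far side of Il24. Its mean fold was 2.26 in KO 30 min, where it counted as higher, and 1.84 in KO 60 min, where it did not. Its mean folds in the WT mice were 0.907 and 0.966. Il10, which encodes the cytokine that gives the wider family its name, lies 91.7 kb on the other side, with mean folds of 1.49 in WT 30 min, 1.46 in KO 30 min, 0.998 in WT 60 min and 1.11 in KO 60 min. In KO 60 min the neighbours thus held mean folds nearer to 1 than those of both Il19 probes.

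**Figure D3:**
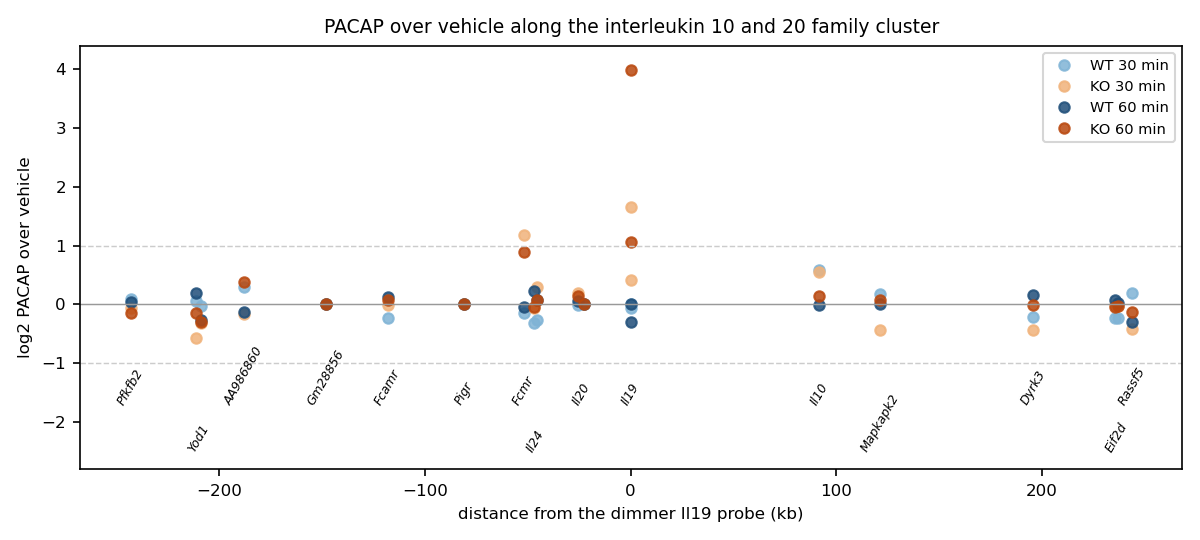
The log2 ratio of PACAP over vehicle (y axis, mean of 2 arrays) of 20 probes against their distance in kb from the dimmer Il19 probe (x axis), with one colour for each comparison and dashed lines at a fold of 2.0 and 0.5. The 2 highest points are the dimmer Il19 probe in KO 60 min and KO 30 min, and Fcmr is the one neighbour past the upper line.

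Of the receptor chains, Il20rb, Il22ra1 and Il10rb each had 1 probe well above background in all 16 channels, and Il20ra had none. Il20rb, the chain shared by the receptors for IL-19, IL-20 and IL-24, was measured best by its brighter probe (A_55_P2023294, mm9 chr9:100358139-100358198, minus strand). Its PACAP over vehicle folds were 1.07 and 1.09 in WT 30 min, 1.00 and 0.977 in WT 60 min, 0.810 and 0.810 in KO 30 min, and 0.936 and 0.949 in KO 60 min. The arrays of a pair agreed closely for this probe. Its log2 level lay between 10.53 and 11.01, lowest in the PACAP sample of KO 30 min. The other Il20rb probe (A_55_P2057896) was not well above background in any channel. The software gave it a fold of 0.178 on the KO 30 min array with PACAP in Cy5 and 1 on the other 7, and none of these is read as a change.

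Il22ra1, the chain that IL-20, IL-24 and IL-22 share, had log2 levels of 8.42 after vehicle at both times and 8.40 to 8.42 after PACAP in the WT mice with its brighter probe (A_55_P2221165, mm9 chr4:135310900-135310959, plus strand). In the KO mice the levels were 8.16 and 8.18 after vehicle and 7.87 and 8.17 after PACAP. All 4 KO samples were below all 4 WT samples with this probe. The fold after PACAP was 0.799 and 0.704 in KO 30 min, below 1 on both arrays, and between 0.870 and 1.05 on the other 6 arrays. Its dimmer probe (A_55_P2047431) disagreed and was well above background in 12 of 16 channels. The folds of that probe were 0.669 to 1.46 on single arrays, with the Cy5 sample the brighter on 1 of 8. With it all 4 KO samples, at 6.30 to 6.47, were above all 4 WT samples, at 6.20 to 6.24. The share of all probes that separate the genotypes was not counted, and genotype and slide coincide.

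Il10rb, the chain shared with the receptors of IL-10, IL-22 and the lambda interferons, had PACAP over vehicle folds between 0.920 and 1.11 on all 8 arrays (A_55_P2181109, mm9 chr16:91425744-91425803, plus strand). This was the narrowest range among the members with measured ratios. Il20ra, the chain that completes the receptor for IL-19, was at the edge of detection, with its single probe (A_51_P340170, mm9 chr10:19479702-19479761, plus strand) well above background in Cy5 on all 8 arrays and in Cy3 on none. Its fold of 3.35 in KO 60 min with PACAP in Cy5 stood beside 0.982 on the array with the dyes exchanged. No receptor probe counted as changed in any comparison.

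The signalling genes below the receptors also had 0 probes that counted. Among all probes 0.142% to 0.601% counted as higher and 0.0964% to 0.15% as lower over the comparisons, so nothing is read from such a 0. Of 14 JAK-STAT genes on 16 probes, among them the kinases Jak1, Jak2 and Tyk2, Stat3 and the feedback inhibitors Socs1 and Socs3, 0 probes counted as changed in any comparison. Their median log2 ratio was 0.16 in WT 30 min, -0.34 in KO 30 min, -0.05 in WT 60 min and 0.14 in KO 60 min, where that of all probes was 0 each time. Socs3, which STAT3 induces, had mean folds of 1.28, 1.12, 0.980 and 1.24 in that order. The highest of the list in KO 60 min was Bcl3, a regulator of NF-kappa-B, with folds of 1.75 and 1.80 on the arrays and means of 0.767 to 0.955 in the other comparisons. Related cytokines and receptors, 7 genes on 9 probes that included Il10, Il22 and Il10ra, also had 0 probes counted as changed.

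Of 11 cytokines known to induce the family in skin, on 11 probes, 2 counted as higher at 30 min in both genotypes, Il1b and Il6, beside 0.254% of all probes in WT 30 min and 0.601% in KO 30 min. The other 9, among them Tnf, Il1a, Il17a and Il33, did not count. Tnf had folds of 2.86 and 1.54 in WT 30 min, a mean of 2.10, and was left out by the limit on p. At 60 min 0 of the 11 counted, beside 0.583% of all probes as higher in WT and 0.142% in KO. Il36a, Il36b and Il36g were also listed, but their names were not found on the array. Il1b, the IL-1 beta gene, had PACAP over vehicle folds of 2.04 and 2.17 in WT 30 min and 4.27 and 5.30 in KO 30 min. Il6 had 4.22 and 4.73 in WT 30 min and 3.39 and 4.27 in KO 30 min. In KO 60 min, the comparison with the high Il19 ratio, their mean folds were 1.46 for Il1b and 1.77 for Il6, neither of which counted.

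Genes that keratinocytes raise in wounds and under these cytokines counted as higher in the KO mice more often than in the WT mice, a difference that was not tested. Of 22 probes for 20 genes, 1 counted as higher in WT 30 min, beside 0.254% of all probes, and 10 in KO 30 min, beside 0.601%. There were 4 in WT 60 min, beside 0.583% of all probes, and 9 in KO 60 min, beside 0.142%. In each comparison 0 probes of the list counted as lower. The median log2 ratio over these genes was -0.08, 0.97, 0.11 and 0.85, beside 0 for all probes. In KO 60 min the wound keratins Krt6b and Krt16 had mean folds of 7.68 and 5.38, the beta-defensin Defb4 4.96 and the calcium-binding alarmin S100a8 4.56. In WT 60 min the same probes had 2.20, 2.30, 2.07 and 1.87, of which the first 3 counted. A dimmer Krt6b probe had 3.06 in KO 60 min, where it counted, and 1.71 in WT 60 min, where it did not. Other genes of the list were not higher in KO. The keratin Krt17 had 2.10 in both genotypes at 60 min and counted in both. Cxcl1, the 1 probe that counted in WT 30 min, had 2.61 there and 1.95 in KO 30 min, where it did not count. In KO 60 min S100a7a had 0.999 and Vegfa 0.979. Cxcl5, a chemokine for neutrophils, had a mean fold of 29.1 in KO 30 min and single-array folds of 3.42 and 2.81 in KO 60 min, against means of 1.06 and 0.928 in the WT mice. These genes were listed with results of these samples known, and S100a8 and S100a9 are also on the list of neutrophil markers.

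**Figure D4:**
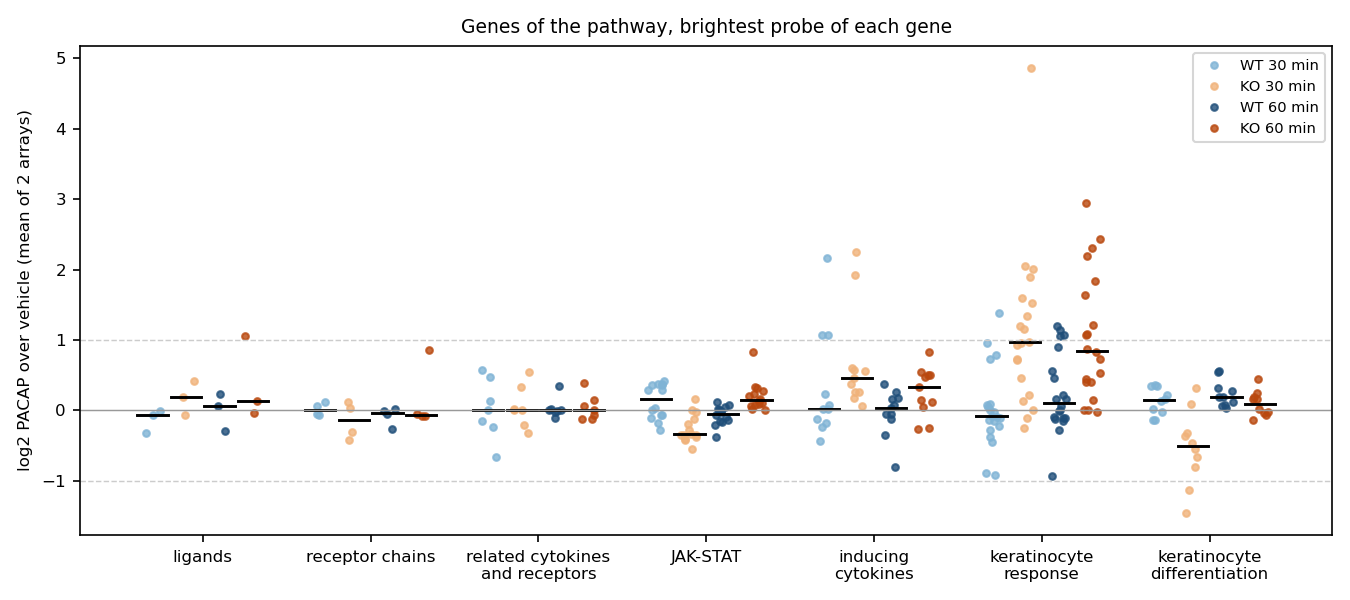
The log2 ratio of PACAP over vehicle (y axis, mean of 2 arrays) of single genes, each by its brightest probe, in 7 lists (x axis) with one colour for each comparison. Black bars are medians and dashed lines a fold of 2.0 and 0.5; in the keratinocyte response list the medians are 0.97 in KO 30 min and 0.85 in KO 60 min, against -0.08 and 0.11 in the WT mice.

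Markers of the tissues in a paw differed between PACAP and vehicle samples in the same comparisons. All 8 keratinocyte markers were well above background in all 16 channels, and their summed log2 level lay between 17.9 and 18.3 in the vehicle samples and 17.7 and 18.2 in the PACAP samples. Krt1 and Krt10, keratins of the upper epidermis, counted as lower in KO 30 min, with mean folds of 0.455 and 0.365, the comparison where Il20rb and Il22ra1 were lowest. Of 12 neutrophil marker probes 3 counted as higher in KO 30 min and 2 in KO 60 min, and 0 in the WT mice. The 2 in KO 60 min were S100a8 and S100a9, which are also on the keratinocyte response list and were among the 3 in KO 30 min. In KO 60 min Ly6g, a neutrophil surface marker, had a mean fold of 0.924 and Retnlg 1.13. The summed log2 level of the whole list was 13.6 to 14.2 after vehicle and 14.2 to 15.4 after PACAP. Of 12 hair probes 10 counted as higher and 0 as lower in WT 60 min, 8 and 2 in KO 30 min, 2 and 4 in WT 30 min, and 0 and 3 in KO 60 min. The summed hair level was highest of the 8 samples in the vehicle sample of KO 60 min, at 14.8. Of 14 skeletal muscle probes 3 counted as higher in WT 30 min, 4 as lower in KO 30 min and 0 in KO 60 min. Among all probes 0.254% counted as higher and 0.0964% as lower in WT 30 min, and 0.601% and 0.107% in KO 30 min. The shares were 0.583% and 0.109% in WT 60 min, and 0.142% and 0.15% in KO 60 min. The median log2 ratio of the 8 keratinocyte markers was -0.67 in KO 30 min, and that of the 6 fibroblast markers was 0.45 in WT 30 min, with 6 of 6 above 0, and -0.57 in KO 30 min, with 0 of 6 above 0. For macrophages, T cells, fibroblasts and endothelium, 0 marker probes counted in any comparison. Their summed log2 levels ran from 14.00 to 14.35, 10.67 to 10.79, 16.49 to 16.99 and 12.54 to 12.69 after vehicle, and from 14.11 to 14.34, 10.51 to 10.99, 16.43 to 17.12 and 12.50 to 12.71 after PACAP. No marker list had a gene at background in every channel. The part of these shifts in the ratios of the family was not tested, and in skin taken whole, fewer cells of a type and less RNA per cell cannot be told apart.

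The vehicle samples alone allowed a test of genotype and of time, although they are also the denominators of the ratios the members were chosen on. With 1 sample per genotype and time, and the other factor as a covariate, it rested on 1 residual degree of freedom. Of 24897 probes tested, limma called 0 between KO and WT at an adjusted p under 0.05, which is 0% of the probes, and 3549 had an unadjusted p under 0.05. Between 60 and 30 min it again called 0, or 0%, with 6300 at an unadjusted p under 0.05. There were 8 member probes in the test. The brighter Il19 probe was higher in KO vehicle samples by 0.49 on the log2 scale (SE 0.09, limma adjusted p = 0.318), with 7.12 and 7.26 in KO against 6.62 and 6.78 in WT. Il22ra1 was lower by 0.25 with its brighter probe (SE 0.09, limma adjusted p = 0.340), and its dimmer probe gave a difference of the opposite sign, 0.14 (SE 0.09). The Il10rb difference was 0.17 (SE 0.09) and that of Il20rb -0.03 (SE 0.09). With time, Il20 had the widest difference among the members, 0.37 higher at 60 min (SE 0.13, limma adjusted p = 0.172), made of 0.18 in WT and 0.56 in KO. None of the member differences passed the test, which does not show that the genotypes are alike. With processed signals, which share no scale across arrays, Il19 between genotypes (1.19) and Il20 between times (1.26) did pass.

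**Figure D5:**
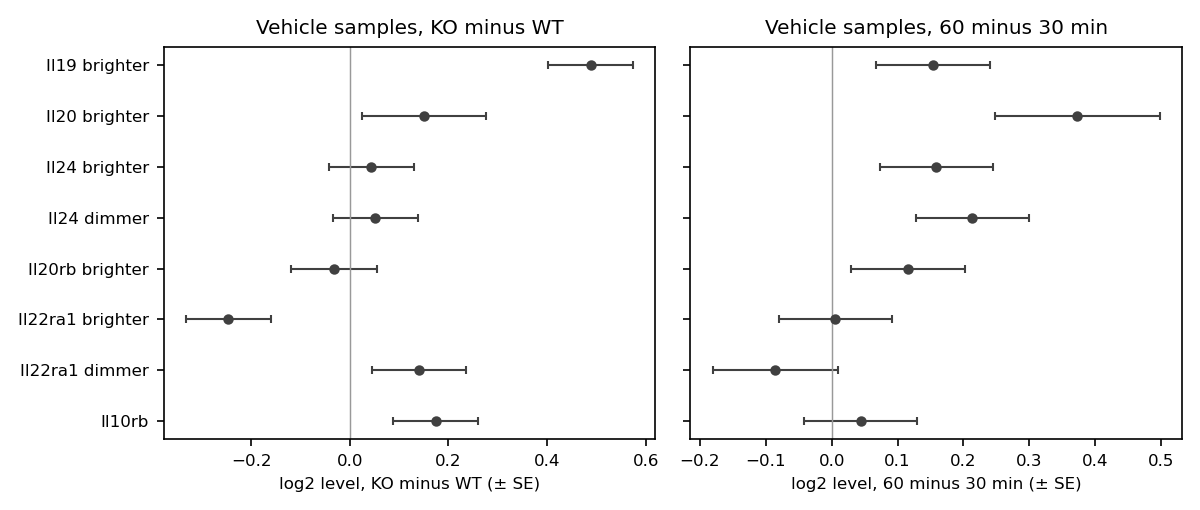
Differences in log2 level between vehicle samples (x axis) for the 8 member probes tested (rows), KO minus WT on the left and 60 minus 30 min on the right. Points are limma estimates and bars 1 SE; Il19 at 0.49 and Il22ra1 at -0.25 lie farthest from 0 between genotypes, and neither passed after adjustment.

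By their pattern of log2 levels over the 8 samples, the genes most like Il19 were Gadl1, Gm3764, Gm46139, Klra9 and BC040756, with Pearson r of 0.976 to 0.954. Klra9, a receptor of natural killer cells, had mean folds of 0.717 in WT 30 min, 1.63 in KO 30 min, 0.882 in WT 60 min and 1.36 in KO 60 min. Most like Il20 were G630055G22Rik, Rnd1, Olfr1386, Pxdc1 and Trp53tg5 with r of 0.997 to 0.991, and most like Il24 were Plagl2, Zfp790, Acss2, 4933413J09Rik and Frmd4a with r of 0.994 to 0.983. These are the highest of 30351 probes over 8 samples that share 4 pairs of arrays and 2 slides, so the values are a description of rank alone.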

How the data were processed

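Palm skin RNA was measured on 8 two-colour Agilent mouse arrays, 4 pairs of PACAP and vehicle samples with swapped dyes. The authors extracted the images with Agilent Feature Extraction (12.0.3.1 per the file headers, 11.0.1.1 in the submitters' processing notes). The deposited log10 ratios are background-corrected and LOWESS-normalized, red over green. The deposited p-value of each spot comes from the software's error models for that array. The deposited intensity columns hold processed, mean and background signals of both channels, with flags. The deposited series matrix equals log10 of processed red over green within 5e-10.

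Control spots and spots flagged as outliers were left out, each ratio was signed as PACAP over vehicle, and the mean was taken over spots and then arrays. Well above background is the software's flag. Levels are log2 intensities per channel after normexp with an offset of 50, loess and Aquantile normalization, averaged over both arrays. The vehicle test used limma (3.58.1; R 4.3.3) with lmFit, eBayes and Benjamini-Hochberg adjustment on genotype and time, over probes well above background. It and the counting rule were also run on simulated data with normal noise and no dye effect. That run does not show how either performs on these arrays. Precision is limited by the number of RNA samples, 2 per comparison.

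The members, gene lists, tests and alternatives were chosen with earlier results of these data known. Named are the members, list genes where a list is described, and the 5 genes most like Il19, Il20 and Il24. A gene is given by its brightest probe, other probes where they disagree. Alternatives are other background corrections, centring, spots, arrays, thresholds and filters.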

Additional observations from a re-analysis of the deposited data

Results flagged for a closer look

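Over the 12 member probes, 2 went one way in both KO pairs and the other way in both WT pairs; this difference was not tested. Over the whole array 3906 of 39421 probes did so, or 9.91%, and nothing about the family is read from the count. For the brighter Il19 probe, the mean log2 ratio of PACAP over vehicle was 0.92 higher in KO than in WT, from mean folds of 1.33 and 2.08 in the KO pairs and 0.954 and 0.816 in the WT pairs. For the dimmer Il22ra1 probe the same difference was 0.36, from mean folds of 1.05 and 1.18 in the KO pairs and 0.902 and 0.839 in the WT pairs. On single arrays the direction changed with the dye for Il19 in both WT pairs, and for this Il22ra1 probe in WT 30 min, KO 30 min and KO 60 min. The brighter Il22ra1 probe had mean folds below 1 in all 4 comparisons.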

How the results depend on the processing

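No paired analysis was possible because the replicate numbers name the 2 dye-swapped arrays of one RNA pair, which count as 1 replicate. Of the main results under their alternatives, 110 kept their side or size and 8 moved. The log2 ratio of Il19 in KO 60 min was 0.73 with normexp and loess for the brighter probe and 2.12 for the dimmer, against 1.06 and 3.99. On single arrays these ratios ran from 1.01 to 1.11 and from 3.62 to 4.36. Member probes counted as higher in KO 60 min fell from 2 to 1 with normexp and loess, where the dimmer Il19 probe remained and the count over all probes fell from 56 to 29. The member count was also 1 with each gene's brightest probe only, a setting under which the other genes of the array were not counted. In KO 30 min the count went from 0 to 1 with no p filter and, over the single arrays, ran from 0 to 2, while over all probes 237 became 267 with no p filter and 723 and 435 on single arrays. The other counts of member probes kept their values under all alternatives run. With Feature Extraction processed signals, which share no scale across arrays, limma called 1858 probes between vehicle KO and WT and 1567 between 60 and 30 min, against 0 in each; Il19 was then among the first (1.19 on the log2 scale) and Il20 among the second (1.26). Of the 302 other member values under alternatives, 30 moved by more than the spread between the arrays, 21 of them from a ratio that the software had set to 0, and 2 were newly called. In 32 of the 302 the sign changed, 25 of these on single arrays, and none of these was a called value. Signal over background limits the ligand values: of their 6 probes 1, the brighter of Il19, was well above background in all 16 channels. The cause of the differences between settings was not tested.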
